A study of Mus musculus with 12 samples.

Results

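The stretch described here covers 500000 bp of mouse chromosome 6, from 122300000 to 122800000 (mm10), and holds Phc1, Apobec1, Gdf3, Dppa3, Nanog and Slc2a3 in this order. It was chosen by measured values, because a tile of 1000 bp beginning at 122390001 had one of the largest differences in methylation between CD11b-positive and PBS cells. The values of that contrast therefore describe the choice and carry no test. Its members are the CpGs with at least 10 methylation calls, both strands summed, in each of the 12 libraries: 304 of the 1052856 such CpGs on the autosomes and X. All 6 genes were found in the annotation at these coordinates, and 5 of them held member CpGs. Nanog held none. In all, 4216 CpGs of the stretch had a call in at least 1 library, and a member CpG had, at the median, 91 calls in a library.

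The cells are CMM, a GFP-positive mouse leukaemia engrafted by vein in C57BL/6 mice, and the series title names inv(16) acute myeloid leukaemia. All 12 libraries are reduced representation bisulfite sequencing (RRBS) of DNA from sorted spleen cells, in which a read that crosses a CpG scores the cytosine as methylated or not. The groups, of 4 libraries each, are GFP-positive CD11b-positive cells of mice given CpG-STAT3dODN (CpG DNA linked to a decoy for the transcription factor STAT3), GFP-positive CD11b-negative cells of mice given the same agent, and GFP-positive cells of mice given PBS. Each agent was injected 3 times on alternate days from about 1% GFP-positive cells in blood, and spleens were taken 1 day after the last dose. Cells of PBS mice were not sorted by CD11b, so in a comparison with PBS the effect of treatment and that of sorting on CD11b cannot be told apart. The labels give no age or sex of the mice, do not say whether each library is a different animal, and the data hold DNA methylation alone, so the labelled cell type was not set against marker expression. Without that statement on animals, p-values measure the spread between these libraries, which may be technical.

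This neighbourhood is best known from embryonic stem cells and germ cells, where Nanog, Gdf3 and Dppa3 are expressed together. In most adult tissues these genes are silent, and CpG-poor DNA such as that around them is usually methylated, while CpG-dense promoters of broadly used genes are usually unmethylated whether or not the gene is transcribed. DNA methylation at such sites is laid down by DNMT3 enzymes and copied at replication by DNMT1.

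The promoter sequences are shown for the range of CpG content in the stretch. Capitals mark each CG. Each window runs from 250 bases before to 50 bases after the annotated start, from RefSeq (GRCm38.p6, the build of mm10), and the table used held such windows for 5 genes of the stretch. 1700063H04Rik, a long noncoding RNA gene of unknown function, is the gene nearest the tile. Its window has 7 CG, none of them a member CpG. Rimklb, which encodes an enzyme joining glutamate to N-acetylaspartate or citrate, stands for CpG-dense starts with 47 CG, 22 of them member CpGs. Phc1 has 9 CG and Nanog 4, with no member CpG in either window.
1700063H04Rik, chr6:122391129-122391428 (plus strand): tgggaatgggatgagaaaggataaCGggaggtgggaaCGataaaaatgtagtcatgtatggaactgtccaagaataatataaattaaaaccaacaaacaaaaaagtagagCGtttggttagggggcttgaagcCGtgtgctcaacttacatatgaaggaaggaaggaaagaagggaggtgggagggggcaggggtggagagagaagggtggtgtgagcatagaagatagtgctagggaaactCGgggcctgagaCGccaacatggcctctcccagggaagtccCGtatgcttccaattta
Rimklb, chr6:122486256-122486555 (minus strand): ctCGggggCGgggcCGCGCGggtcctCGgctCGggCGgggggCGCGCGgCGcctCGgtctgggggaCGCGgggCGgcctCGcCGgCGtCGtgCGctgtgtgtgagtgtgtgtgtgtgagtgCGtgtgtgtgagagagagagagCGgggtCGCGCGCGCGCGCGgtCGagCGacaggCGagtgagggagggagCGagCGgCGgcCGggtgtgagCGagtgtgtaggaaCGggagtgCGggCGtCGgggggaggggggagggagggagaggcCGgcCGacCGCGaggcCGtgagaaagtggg
Phc1, chr6:122340178-122340477 (minus strand): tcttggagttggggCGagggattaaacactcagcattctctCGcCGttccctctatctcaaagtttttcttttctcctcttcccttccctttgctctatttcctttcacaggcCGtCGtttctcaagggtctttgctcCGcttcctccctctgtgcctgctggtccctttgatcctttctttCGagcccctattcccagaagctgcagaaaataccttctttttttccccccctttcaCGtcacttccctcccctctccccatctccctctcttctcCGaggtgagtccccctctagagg
Nanog, chr6:122707239-122707538 (plus strand): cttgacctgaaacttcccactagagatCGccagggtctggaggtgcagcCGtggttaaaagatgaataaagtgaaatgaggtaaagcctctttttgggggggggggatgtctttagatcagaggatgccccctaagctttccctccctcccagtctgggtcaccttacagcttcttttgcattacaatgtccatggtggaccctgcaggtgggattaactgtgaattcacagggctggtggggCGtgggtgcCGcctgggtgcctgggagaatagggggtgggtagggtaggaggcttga

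Apobec1 has 9 CG in its window. RRBS is commonly built on MspI, which cuts at CCGG on either strand. The letters CCGG stood 3 times in the Rimklb window and not in the other 4 genes' windows. Over 32851 RefSeq promoter windows of the same length, 52.8% held CCGG and 94.6% held CG, with a median of 7 CG. These counts describe the letters and say nothing of the cutting itself.

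Library CD11b-negative 2 stood apart from the other 3 of its group and lay near CD11b-positive 2. The chi-square per CpG, a measure of how far a pair of libraries differs, was 1.21 between them, about as low as in the closest pairs within a group. For CD11b-negative 2 it was 8.73 to 13.1 against its own group and 4.76 to 5.48 against the other CD11b-positive libraries. The cause of this likeness was not tested. CD11b-negative 2 had the highest mean methylation of its group. It had 40.2 calls on 8 single-copy Y genes per 1000000 autosomal calls, against 8.64 to 12.9 in the other CD11b-negative libraries. The same Y share was 23.8 to 41.3 in CD11b-positive and 5.52 to 18.6 in PBS, so it moved with the groups. Library totals were 112671408 to 157223205 calls. Differences that use the CD11b-negative group are therefore also given without library 2 where that moved them by over 1.5 times, and differences with the Y share as a term are given for the chosen tile, Apobec1, Gdf3, Dppa3 and Slc2a3. No pair of libraries agreed within sampling noise.

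Over the 304 CpGs, mean methylation was higher in CD11b-positive than in PBS libraries and lay in between in CD11b-negative ones. It was 28.6%, 33.2%, 27.7% and 27.8% in CD11b-positive libraries 1 to 4, 23.4%, 32.4%, 22.3% and 21.9% in CD11b-negative libraries, and 19.4%, 22.6%, 21.2% and 21.0% in PBS libraries. Every CD11b-positive library lay above every PBS library, and CD11b-negative 2 alone of its group lay within the CD11b-positive range. The means were 29.4% ± 2.61, 25.02% ± 4.98 and 21.0% ± 1.32 in CD11b-positive, CD11b-negative and PBS (SD, n = 4 each). Without library 2 the CD11b-negative mean was 22.5% ± 0.786 (SD, n = 3). The CD11b-positive mean exceeded the PBS mean by 8.31 percentage points, where the same difference over all common CpGs was 3.32 points. Without the 3 CpGs of the tile the difference in the stretch was 7.80 points.

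The CD11b-negative mean exceeded the PBS mean by 3.98 points, a difference that did not pass the test (two-sided exact permutation p = 0.0857, adjusted p = 0.143 over the 2 comparisons tested), with 14 of 16 pairs of libraries in that direction. Without library 2 it was 1.504 points (exact permutation p = 0.171, adjusted p = 0.171). The CD11b-positive mean exceeded the CD11b-negative mean by 4.34 points (exact permutation p = 0.143, adjusted p = 0.143), with 13 of 16 pairs in that direction. Same-numbered libraries of these groups differed by 5.20, 0.788, 5.40 and 5.96 points, all with CD11b-positive higher (exact sign-flip p = 0.125, the smallest that 4 pairs can give). Only number 2 correlated best with its own number in its deviations, so the pairing is assumed. Without library 2 the gap was 6.81 points, in 12 of 12 pairs (exact permutation p = 0.0571, adjusted p = 0.114). With 35 assignments this is the smallest p the test can give. Both tested comparisons share libraries with the contrast that picked the stretch, so neither is independent of the choice.

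Methylation was low at dense CpGs of the stretch and higher at sparse ones. Of the members, 153 were dense, that is, in a window reaching 250 bp either way that held 25 or more listed CpGs, and 151 were sparse. Dense CpGs averaged 1.00% ± 0.230, 0.913% ± 0.0342 and 0.881% ± 0.193 in CD11b-positive, CD11b-negative and PBS (SD, n = 4 each), and the largest difference at any of them, in any comparison, was 4.98 points. Sparse CpGs averaged 58.1% ± 5.36, 49.4% ± 10.01 and 41.5% ± 2.54. Without library 2 the CD11b-negative value of the sparse CpGs was 44.5% ± 1.59 (n = 3). At sparse CpGs the CD11b-positive mean was 16.6 points above the PBS mean. The CD11b-negative mean was 7.97 points above the PBS mean, or 3.01 without library 2, and the CD11b-positive mean 8.64 points above the CD11b-negative mean, or 13.6 without library 2. No test was made on the sparse CpGs as a class. Over all common CpGs, sparse ones averaged 64.3%, 59.6% and 54.8% in CD11b-positive, CD11b-negative and PBS, a difference of 9.49 points between CD11b-positive and PBS. All dense ones averaged 8.13%, 9.36% and 10.4%, so the near-zero dense CpGs of the stretch lay below the dense CpGs of the genome in every group.

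**Figure D1:**
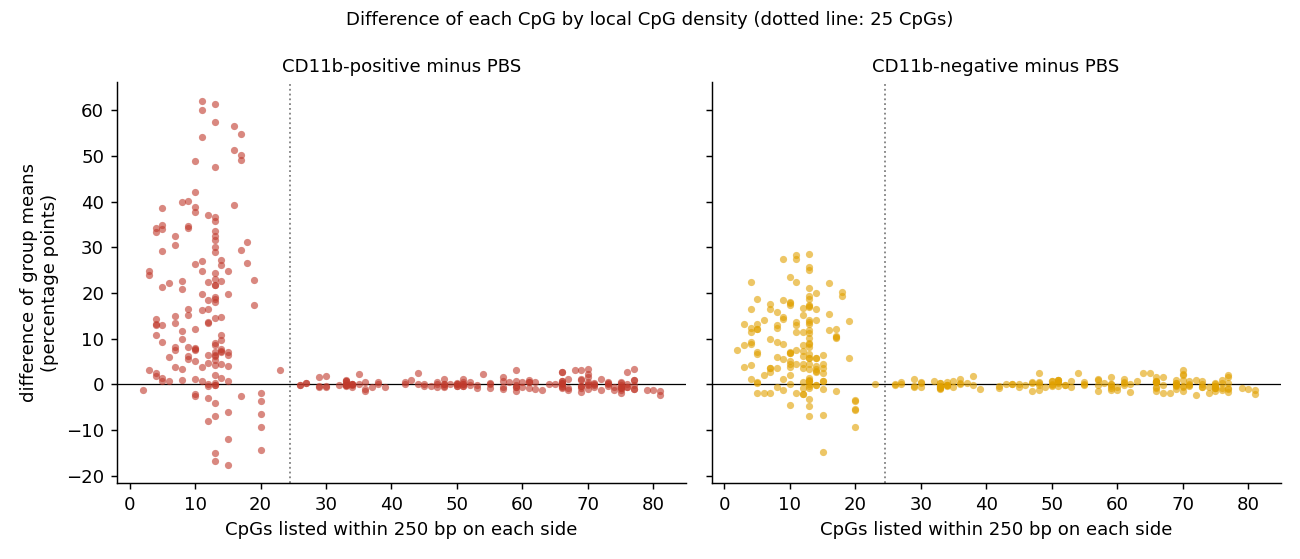
Difference of group means of each of the 304 CpGs (vertical axis, percentage points) against the number of listed CpGs up to 250 bp away either way (horizontal axis), for CD11b-positive minus PBS on the left and CD11b-negative minus PBS on the right. Right of the dotted line at 25 CpGs all points sit near 0, and on its left they reach 62.1 points on the left panel and 28.5 points on the right panel.

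The rule on coverage also picks CpGs by depth. The 10 CpGs whose least covered library had 10 to 13 calls, just inside the rule, averaged 92.8%, 87.5% and 85.2% in CD11b-positive, CD11b-negative and PBS. The 57 CpGs with 6 to 9 calls there, just outside it, averaged 25.2%, 24.4% and 23.0%.

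A CpG or tile was called when the quasi-binomial test gave an adjusted p under 0.05 over all features of the genome and the group means differed by at least 10 points. Between CD11b-positive and PBS, 66 CpGs were called higher (13.3% of all common CpGs were) and 2 lower (3.48% of all were), together 22.4% of the 304 against 16.7% of all common CpGs. All 68 were sparse. The 2 lower ones lay at 122495643, 8581 bp past Rimklb (1.47% in CD11b-positive, 16.5% in PBS), and at 122527844 in Mfap5 (19.7% in CD11b-positive, 37.3% in PBS). Of the 33 tiles with at least 3 member CpGs, 14 were called higher (32.5% of all tiles were) and 0 lower (3.76% of all were) in this contrast, 42.4% against 36.3% of all tiles. The groups did not overlap at 77 CpGs with CD11b-positive higher (17.6% of all common CpGs did so) and at 17 tiles (50.3% of all tiles). CD11b-positive lay wholly lower at 3 CpGs and 0 tiles, and the share of all features doing so is not given. This contrast chose the stretch, and nothing is read from these counts.

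No CpG and no tile of the stretch was called between CD11b-negative and PBS, where the quasi-binomial test called 0% of either genome-wide. At an unadjusted p under 0.05 there were 29 CpGs and 3 tiles, while edgeR's quasi-likelihood test made 0 tile calls and put 4 tiles under that unadjusted p. The share of all CpGs or tiles under that p is not given here for any comparison, so nothing is read from such counts. The CD11b-negative libraries lay wholly above the PBS libraries at 15 CpGs (3.25% of all common CpGs did so) and at 4 tiles (10.2% of all tiles), and without library 2 at 17 CpGs (4.54% of all) and 4 tiles (11.5% of all). With all libraries CD11b-negative lay wholly below PBS at 3 CpGs and 0 tiles, and the share of all features doing so is not given. Without library 2, 0 CpGs and 0 tiles were called here, where the background was 0.0019% and 0.00345%, with 27 CpGs and 6 tiles at an unadjusted p under 0.05. Between CD11b-positive and CD11b-negative the test also called 0 CpGs and 0 tiles (background 0% for both), with 22 CpGs and 2 tiles at an unadjusted p under 0.05. There edgeR made 0 tile calls and put 3 tiles under that p. CD11b-positive libraries lay wholly above CD11b-negative ones at 3 CpGs (1.04% of all common CpGs) and 1 tile (1.99% of all tiles), and without library 2 at 64 CpGs (14.4% of all) and 16 tiles (40.2% of all). With all libraries CD11b-positive lay wholly below CD11b-negative at 2 CpGs and 0 tiles, and the share of all features doing so is not given. With the replicate number as a block, a fit that compares same-numbered libraries, 31 CpGs were called higher in CD11b-positive and 0 lower (background 6.83%), and 6 tiles higher (background 13.5%). Without library 2 and with no block, 39 CpGs were called higher and 1 lower (background 7.32%, of which 5.55% higher), and 7 tiles higher and 0 lower (background 20.4%, of which 17.7% higher), so the calls of this comparison depended on how library 2 was handled.

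The median tile difference in the stretch was 9.56 points between CD11b-positive and PBS, 5.20 between CD11b-negative and PBS and 2.75 between CD11b-positive and CD11b-negative, against 5.0, 2.53 and 2.18 over all 87020 tiles. The median without library 2 was 2.14 between CD11b-negative and PBS (0.954 over all tiles) and 5.52 between CD11b-positive and CD11b-negative (3.42 over all tiles). CD11b-positive was higher than PBS at 30 of the 33 tiles, or 90.9%, where 80.1% of all tiles went the same way. CD11b-negative was higher than PBS at 28 tiles, or 84.8% (79.2% of all tiles), and without library 2 at 24, or 72.7% (73.6% of all tiles). CD11b-positive was higher than CD11b-negative at 30 tiles, or 90.9% (75.1% of all tiles), and without library 2 at 28, or 84.8% (76.2% of all tiles).

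**Figure D2:**
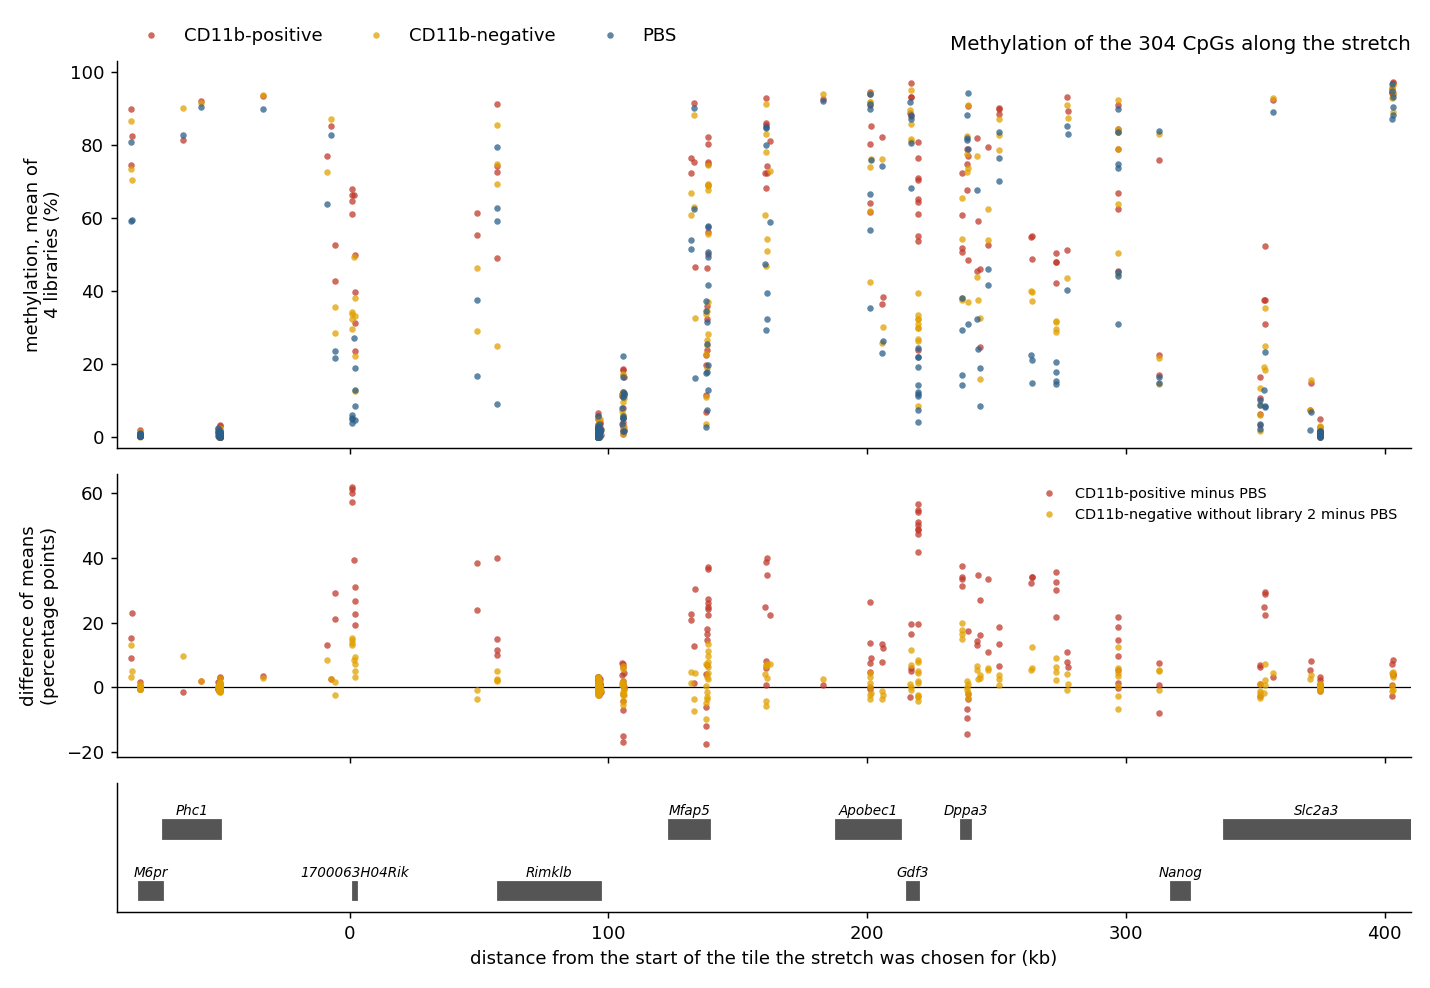
Methylation along the stretch. The upper panel plots the mean of the 4 libraries of each group (percent) for each of the 304 CpGs, the middle panel the difference from PBS (percentage points) for CD11b-positive and for CD11b-negative without library 2, and the lower panel the genes, all against the distance in kb from the start of the chosen tile. The largest gaps between CD11b-positive and PBS sit at that tile and at the upper end of Gdf3, and the CpGs of Phc1, M6pr and Rimklb cluster near 0%.

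The tile that marked the stretch (122390001 to 122391000) lies outside any gene, 379 bp before 1700063H04Rik and 49774 bp past Phc1. It holds 3 member CpGs, with 111 to 400 calls per library. Methylation was 64.9%, 83.2%, 50.4% and 60.1% in CD11b-positive libraries 1 to 4, 14.9%, 69.8%, 26.7% and 16.3% in CD11b-negative libraries, and 2.25%, 4.18%, 7.21% and 5.42% in PBS libraries. All 4 CD11b-negative libraries lay above all 4 PBS libraries, and library 2 alone reached the CD11b-positive range. The means were 64.6% ± 13.7 in CD11b-positive, 31.9% ± 25.8 in CD11b-negative (19.3% ± 6.41 without library 2) and 4.77% ± 2.09 in PBS. CD11b-negative exceeded PBS by 27.2 points, a difference not called by the quasi-binomial test (adjusted p = 0.488), and by 14.5 points without library 2 (adjusted p = 0.103). With the Y share as a term the difference was 16.3 points and was called (adjusted p = 0.0425), while CD11b-positive exceeded PBS by 41.7 points, against 59.9 without that term. CD11b-positive exceeded CD11b-negative by 32.7 points (adjusted p = 0.386), and by 15.8 with the Y share as a term (adjusted p = 0.410). In same-numbered libraries the gaps were 49.95, 13.3, 23.8 and 43.8 points, and the fit with the replicate number as a block called the tile (adjusted p = 0.00937). Without library 2 the difference was 45.3 points and was called (adjusted p = 0.0224). The tile was chosen for its difference between CD11b-positive and PBS, and each comparison here reuses libraries of that contrast. The calls at this tile are therefore not independent of the choice and are given as a description.

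The 3 CpGs of the tile behaved alike. At 122390840, 122390875 and 122390993 CD11b-positive means were 68.0%, 64.8% and 61.2%, CD11b-negative means 34.1%, 32.3% and 29.4%, and PBS means 5.85%, 4.75% and 3.69%. Read by strand, the CD11b-positive means were 53.5% to 56.5% on the forward strand and 63.7% to 72.3% on the reverse strand, and the PBS means 5.63% to 7.74% and 1.43% to 3.92%, so both strands showed the gap. The next CpG along, at 122391033 in the following tile, had 66.4%, 33.6% and 5.04% in CD11b-positive, CD11b-negative and PBS.

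That next tile (122391001 to 122392000) reaches into 1700063H04Rik, whose annotated start is at 122391379. It holds 6 member CpGs and had 31.7%, 66.7%, 41.5% and 40.3% in CD11b-positive libraries, 29.7%, 64.1%, 20.3% and 14.0% in CD11b-negative libraries, and 7.93%, 19.3%, 12.5% and 10.8% in PBS libraries. The CD11b-positive and PBS libraries did not overlap, and CD11b-negative 2 again stood with the CD11b-positive libraries. CD11b-negative exceeded PBS by 19.4 points (adjusted p = 0.488) and CD11b-positive exceeded CD11b-negative by 13.01 points (adjusted p = 0.471, and 0.0762 with the replicate number as a block), and neither difference was called. Leaving out library 2 gave differences of 8.70 points (adjusted p = 0.365) and 23.7 points (adjusted p = 0.0510), also not called. Within this lncRNA gene the 5 member CpGs averaged 42.2% in CD11b-positive, 31.1% in CD11b-negative and 14.3% in PBS.

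**Figure D3:**
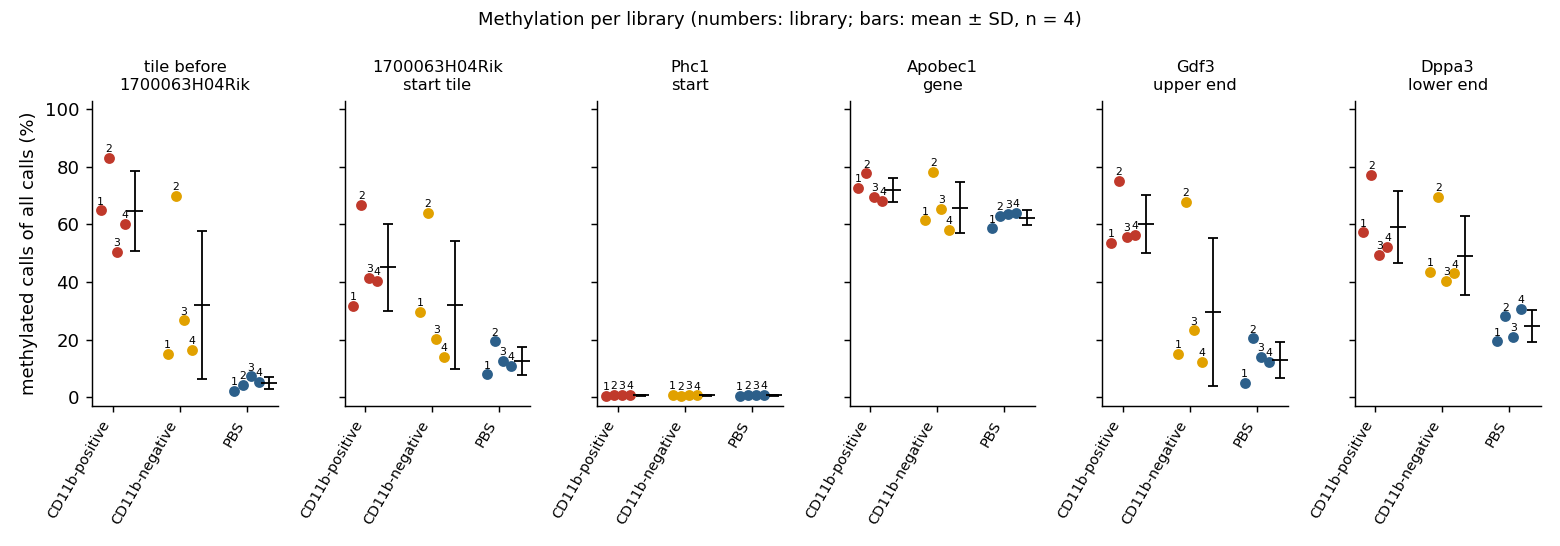
Methylation (percent of calls) in each library, numbered 1 to 4, for 6 places of the stretch, with the mean and SD of each group as bars (n = 4). CD11b-positive is on the left of each panel, CD11b-negative in the middle and PBS on the right. The CpGs just inside the Phc1 start stay near 0% in all 12 libraries, and CD11b-negative 2 lies with the CD11b-positive libraries in the other 5 panels.

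Phc1 (122317731 to 122340227, minus strand) encodes a subunit of the Polycomb repressive complex PRC1 and was nearly unmethylated just inside its start. Within 1000 bp of the start, 54 CpGs with 4009 to 8430 calls per library had 0.684% ± 0.162, 0.663% ± 0.127 and 0.653% ± 0.128 in CD11b-positive, CD11b-negative and PBS (SD, n = 4 each). They lay from 122339283 to 122340010, all inside the gene, so DNA before the start was not measured. The differences were 0.0308 points between CD11b-positive and PBS, 0.0103 between CD11b-negative and PBS (adjusted p = 0.938) and 0.0205 between CD11b-positive and CD11b-negative (adjusted p = 0.994). With so little methylation, no loss of the 10 points that a call requires was possible. With 2000 bp on each side the whole gene had 4.88%, 4.03% and 4.49% over 56 CpGs. M6pr, a receptor that carries lysosomal enzymes and the neighbour on the other side of Phc1, had 0.530%, 0.419% and 0.465% over 14 CpGs, and the Rimklb start had 1.24%, 0.9981% and 1.10% over 72 CpGs. The group means at these 3 places differed by less than 1 point. At the far end of Rimklb, 4 CpGs averaged 61.1%, 62.9% and 40.1% in CD11b-positive, CD11b-negative and PBS.

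Apobec1 (122577792 to 122603024, minus strand) encodes the cytidine deaminase that edits apolipoprotein B mRNA. Its 10 member CpGs, all inside the gene and none within 1000 bp of the start, had 72.7%, 77.7%, 69.5% and 68.3% in CD11b-positive libraries, 61.4%, 78.3%, 65.3% and 58.1% in CD11b-negative libraries, and 58.6%, 62.8%, 63.7% and 64.1% in PBS libraries. Every CD11b-positive library lay above every PBS library, whereas the CD11b-negative libraries spread across both ranges. CD11b-positive exceeded CD11b-negative by 6.29 points (adjusted p = 0.286, and 0.134 with the replicate number as a block). Without library 2 the difference was 10.5 points and was called (adjusted p = 0.0344), as were 17.8% of all gene spans (a gene with 2000 bp on each side) in that fit. CD11b-negative exceeded PBS by 3.45 points with library 2, while without it CD11b-negative was lower by 0.734 points (adjusted p = 0.877). With the Y share as a term CD11b-positive exceeded PBS by 3.02 points, against 9.74 without it, CD11b-negative minus PBS was -0.433 points, and CD11b-positive exceeded CD11b-negative by 0.687 points. Around the start no CpG reached the coverage minimum. There the summed calls were methylated in 2 of 157 in CD11b-positive (1.27%, 95% Wilson interval 0.350% to 4.53%), 3 of 128 in CD11b-negative (2.34%, 0.8002% to 6.66%) and 0 of 44 in PBS (0%, up to 8.03%). These intervals cover counting error only, since copies of one molecule may be counted more than once.

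Gdf3 (122605403 to 122610087) encodes a secreted ligand of the TGF-beta superfamily that acts through the NODAL receptors. Its 15 member CpGs fell into 2 parts. At the upper end, within 1000 bp of 122610087, 10 CpGs with 713 to 1137 calls per library had 53.5%, 75.1%, 55.8% and 56.4% in CD11b-positive libraries, 15.0%, 67.7%, 23.1% and 12.3% in CD11b-negative libraries, and 4.96%, 20.4%, 14.1% and 12.3% in PBS libraries. The CD11b-positive libraries lay above all PBS libraries, and 3 of the 4 CD11b-negative libraries lay close to the PBS range. The means were 60.2% ± 9.99 in CD11b-positive, 29.6% ± 25.9 in CD11b-negative (16.8% ± 5.63 without library 2) and 12.9% ± 6.36 in PBS. CD11b-negative exceeded PBS by 16.6 points (adjusted p = 0.870), or by 3.88 points without library 2, and was not called. CD11b-positive exceeded CD11b-negative by 30.6 points (adjusted p = 0.534). Same-numbered libraries differed by 38.5, 7.31, 32.6 and 44.1 points, and the upper end was called with the replicate number as a block (adjusted p = 0.0176) and, without the block, when library 2 was left out (43.3 points, adjusted p = 0.0181). The upper end differed, with the Y share as a term, by 27.8 points between CD11b-positive and PBS (47.2 without that term), by 4.63 between CD11b-negative and PBS and by 14.4 between CD11b-positive and CD11b-negative (adjusted p = 0.183). All 15 CpGs lie inside the gene. The other 5 (122606001 to 122607000) had 92.1%, 86.8% and 83.2% in CD11b-positive, CD11b-negative and PBS, so this part was methylated in all groups. Over the whole gene the means were 63.8%, 34.5% and 19.0%. There CD11b-positive exceeded CD11b-negative by 29.2 points (adjusted p = 0.260, 0.0578 with the block, and 0.0124 with a difference of 41.1 points without library 2), where the block called 0.573% of all gene spans. With that term the whole gene differed by 26.9 points between CD11b-positive and PBS (44.8 without that term), by 4.50 between CD11b-negative and PBS and by 14.2 between CD11b-positive and CD11b-negative. The gene's strand was not in the table used, so the upper end is not named a start here.

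Dppa3 (122626424 to 122630271) encodes a protein of germ cells and oocytes that guards methylated DNA against oxidation in the zygote. At its lower end, 4 CpGs with 149 to 850 calls per library had 57.2%, 77.1%, 49.4% and 52.2% in CD11b-positive libraries, 43.5%, 69.6%, 40.3% and 43.0% in CD11b-negative libraries, and 19.4%, 28.1%, 20.9% and 30.5% in PBS libraries. Here every CD11b-negative library, not only library 2, lay above every PBS library. The means were 59.0% ± 12.5, 49.1% ± 13.7 (42.3% ± 1.71 without library 2) and 24.7% ± 5.42 in CD11b-positive, CD11b-negative and PBS. CD11b-negative exceeded PBS by 24.4 points, or 17.5 without library 2, and neither was called (adjusted p = 0.870 and 0.403). CD11b-positive exceeded CD11b-negative by 9.88 points (adjusted p = 0.644, and 0.156 with the replicate number as a block), in 4 of 4 same-numbered pairs, and by 16.7 points without library 2 (adjusted p = 0.247). The lower end differed, with the Y share as a term, by 13.1 points between CD11b-positive and PBS (34.2 without that term), by 17.8 between CD11b-negative and PBS and by -0.877 between CD11b-positive and CD11b-negative. All 10 member CpGs of Dppa3 lie inside the gene. The other 6 (122628001 to 122629000) had 73.0%, 72.3% and 76.0% in CD11b-positive, CD11b-negative and PBS, and were the tile of the stretch with the second lowest difference between CD11b-positive and PBS. Over the whole gene the means were 66.6%, 67.1% and 60.9%. Dppa3 and Nanog have processed copies elsewhere in the mouse genome, and how reads that match several places were treated is not given in the sources used here.

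Nanog (122707489 to 122714633, plus strand), the homeobox factor of pluripotent cells, had no CpG with 10 calls in all libraries, so it entered no comparison. Within 2000 bp of the gene 99 CpGs had a call in some library. Summed over libraries, 104 of 246 calls were methylated in CD11b-positive (42.3%, 95% Wilson interval 36.3% to 48.5%), 84 of 131 in CD11b-negative (64.1%, 55.6% to 71.8%) and 23 of 41 in PBS (56.1%, 41.0% to 70.1%). Single libraries had 25 to 118 calls and 39.2% to 56.0% methylated in CD11b-positive, 6 to 75 calls and 42.5% to 100% in CD11b-negative, and 6 to 15 calls and 30% to 80% in PBS. The CpGs read differed between libraries, so these shares do not compare the same sites. Inside the gene 43 of 129 calls were methylated in CD11b-positive (33.3%, 25.8% to 41.8%), 55 of 80 in CD11b-negative (68.8%, 57.9% to 77.8%) and 13 of 27 in PBS (48.1%, 30.7% to 66.0%). Within 1000 bp of the start they came to 13 of 51 (15.5% to 38.9%), 29 of 48 (46.3% to 73.0%) and 2 of 7 (8.22% to 64.1%) in CD11b-positive, CD11b-negative and PBS. The counting intervals of CD11b-positive and CD11b-negative did not overlap in any of these windows, with CD11b-positive lower. These intervals do not cover the spread between libraries. The single-library ranges overlapped within 2000 bp of the gene. Inside the gene they did not, at 21.3% to 43.8% in CD11b-positive and 47.6% to 100% in CD11b-negative. Within 1000 bp of the start they did not either, at 17.4% to 33.3% and 52.6% to 100%, and CD11b-positive 1 had 0 calls there. Single CD11b-negative libraries had as few as 6 calls in both windows. Within 2000 bp of the gene, CD11b-positive 1 gave 118 of the 246 calls and CD11b-negative 2 gave 75 of the 131. No difference between groups is read from them, and no test was made because the sites read were not the same.

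Slc2a3 (122727809 to 122802363), which encodes the glucose transporter GLUT3, runs 2363 bp past the end of the stretch. Within the stretch its 31 CpGs averaged 25.2% ± 1.28, 23.5% ± 6.07 and 18.9% ± 2.97 in CD11b-positive, CD11b-negative and PBS (SD, n = 4 each). Over the whole gene with 2000 bp on each side, 76 CpGs averaged 11.8%, 10.7% and 8.76%. CD11b-negative exceeded PBS there by 1.899 points (adjusted p = 0.735) and CD11b-positive exceeded CD11b-negative by 1.15 points (adjusted p = 0.455), and neither was called. Without library 2 these were 0.794 and 2.26 points (adjusted p = 0.781 and 0.120), and with the Y share as a term 0.714 and -0.104 points. CD11b-positive exceeded PBS by 3.05 points, or by 1.96 with that term. Its tiles ranged from 14 CpGs at 122764001 to 122766000, near 1% in every group, to 4 CpGs at 122793001 to 122794000, with 95.8%, 93.3% and 89.7% in CD11b-positive, CD11b-negative and PBS. In between, 4 CpGs at 122743001 to 122744000 had 64.8%, 42.3%, 31.2% and 21.1% in CD11b-positive libraries, 13.9%, 51.9%, 15.7% and 16.4% in CD11b-negative libraries, and 10.9%, 17.9%, 14.5% and 9.59% in PBS libraries. This tile had 71 to 258 calls per library and the widest spread among CD11b-positive libraries of those described here. The tile at 122793001 overlaps the pseudogene Gm4482, so its calls are uncertain as to source.

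Between the members, the sparse DNA showed the same order of group means at several places when all libraries were used. Without library 2 the CD11b-negative mean at those places lay nearer the PBS mean or below it. In the tile 122551001 to 122552000, between Mfap5 and Apobec1, methylation was 68.5%, 86.8%, 66.4% and 64.7% in CD11b-positive libraries, 48.1%, 84.2%, 39.6% and 30.4% in CD11b-negative libraries, and 24.2%, 46.5%, 35.3% and 28.9% in PBS libraries. CD11b-positive exceeded CD11b-negative by 21.0 points (adjusted p = 0.386), called with the replicate number as a block (adjusted p = 0.00505) and without library 2 (32.2 points, adjusted p = 0.0227). CD11b-negative exceeded PBS there by 16.9 points, or by 5.66 points without library 2, and neither was called. In Mfap5, which encodes a microfibril protein of the extracellular matrix, adjacent tiles went opposite ways between CD11b-positive and PBS. The tile at 122528001 averaged 62.1%, 46.0% and 37.1% in CD11b-positive, CD11b-negative and PBS, and the one before it, at 122527001, averaged 15.2%, 17.6% and 23.0%, the lowest difference between CD11b-positive and PBS of the 33 tiles. Without library 2, CD11b-negative minus PBS was -0.796 points in the tile at 122528001 and -1.77 in the one before it. Between Dppa3 and Nanog 30 CpGs averaged 56.2% ± 6.97, 47.6% ± 12.3 and 37.9% ± 3.01 (SD, n = 4 each). There the tiles at 122653001 and 122663001 were called higher in CD11b-positive than in CD11b-negative with the block, at 53.5% against 38.9% (adjusted p = 0.0377) and 47.1% against 30.4% (adjusted p = 0.0109). The 6 tiles called with the block were these 2 and those at 122390001, 122528001, 122551001 and 122609001, and the 7 called without library 2 were the same 6 with the tile at 122595001 in Apobec1 (52.4%, 44.0% and 41.1% in CD11b-positive, CD11b-negative and PBS). Without library 2 the CD11b-negative mean of that last tile was 38.8%, below the PBS mean. The 3 tiles lowest in CD11b-positive relative to CD11b-negative lay at 122527001, 122702001 and 122764001, with differences of -2.48, -1.30 and -0.506 points, and without library 2 at 122527001, 122702001 and 122628001, with -6.13, -3.02 and -2.57 points. From CD11b-negative minus PBS the 3 lowest lay at 122527001, 122628001 and 122308001, at -5.42, -3.67 and -0.307 points, and the 3 highest at 122390001, 122626001 and 122391001. Leaving out library 2, the 3 lowest were instead 122595001, 122523001 and 122527001, at -2.35, -2.08 and -1.77 points, and the 3 highest were the same tiles.

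**Figure D4:**
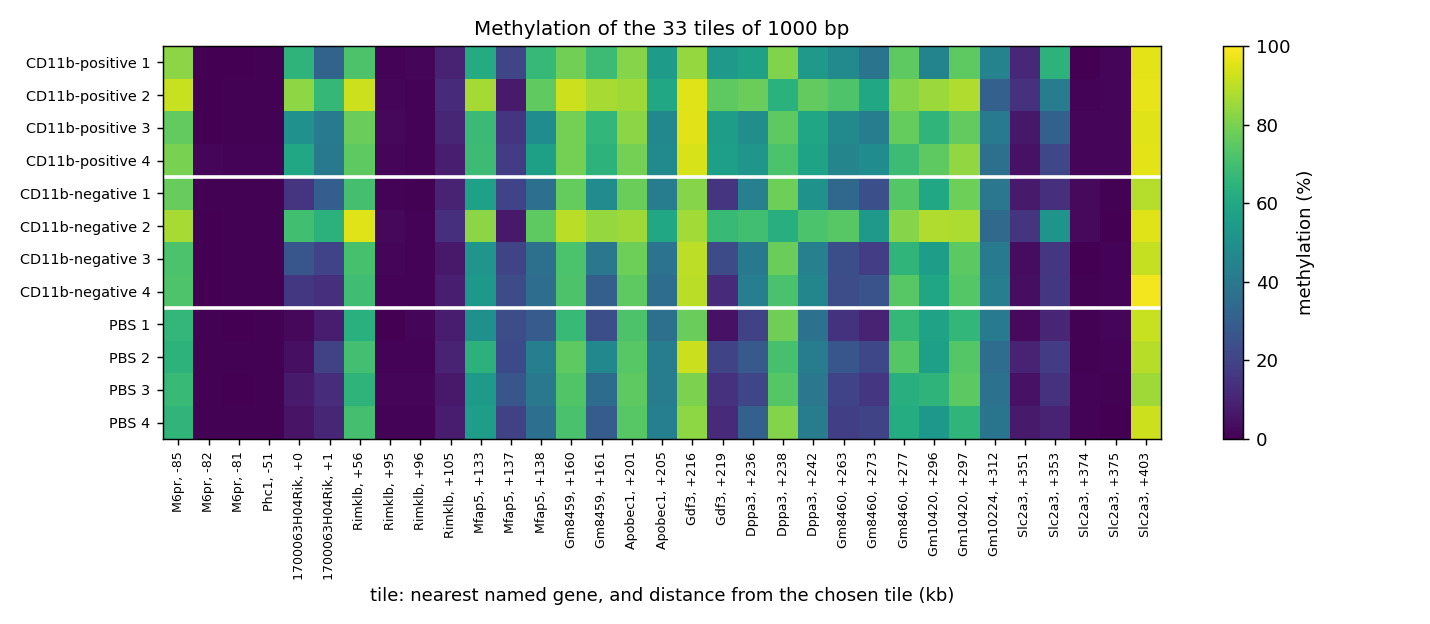
Methylation (percent, colour) of the 33 tiles of the stretch in each library. Columns are tiles, labelled with the nearest named gene and the distance in kb from the chosen tile, and rows are libraries, with CD11b-positive above CD11b-negative above PBS. CD11b-negative 2 has the colours of the CD11b-positive rows in most sparse tiles, and the dark columns are the CpG-dense tiles of M6pr, Phc1, Rimklb and Slc2a3.

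The starts of genes related to the members, on any chromosome, were counted through 5 lists. A start was measured when at least 3 common CpGs lay within 1000 bp of it. Between CD11b-positive and PBS, 10.2% of the 14210 gene starts or ends tested were called in either direction, and the median difference over 10865 gene starts was 0.0592 points. In the pluripotency network around Nanog, 13 of 24 genes were measured. Of these, Esrrb, a nuclear receptor of stem cells, was called higher (40.2% ± 6.40 in CD11b-positive, 25.9% ± 2.76 in PBS), L1td1, an RNA-binding protein gene of stem cells, was called lower (25.2% ± 12.6 in CD11b-positive, 53.4% ± 8.14 in PBS), and the list's median difference was -0.111 points. Of the APOBEC deaminases and related genes, 6 of 8 were measured, with Apobec2 (79.4% in CD11b-positive, 51.7% in PBS) and A1cf, a cofactor of Apobec1 (79.2% in CD11b-positive, 57.9% in PBS), called higher and a median of -0.00699 points. Of 10 glucose transporter genes, 7 were measured, and Slc2a13 was called lower (20.5% in CD11b-positive, 60.1% in PBS), with a median of 0.125 points. The 7 measured of 14 NODAL and GDF signalling genes and the 14 measured of 20 Polycomb PRC1 genes held no call, with medians of 0.0778 and 0.0623 points. The quasi-binomial test called 0 members of these 5 lists between CD11b-negative and PBS and between CD11b-positive and CD11b-negative, with all libraries or without library 2 and with no block. With all libraries it called 0% of gene starts or ends in either comparison, and without library 2 it called 0% between CD11b-negative and PBS and 1.15% between CD11b-positive and CD11b-negative. Among the 47 measured starts of the 5 lists, 2 had an unadjusted p under 0.05 between CD11b-negative and PBS and 4 between CD11b-positive and CD11b-negative, and edgeR called 0 in both. The share of all starts under that unadjusted p is not given, so nothing is read from these counts. With the replicate number as a block, L1td1 and Slc2a13 were called between CD11b-positive and CD11b-negative (background 4.68%).

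Lists of cells other than the leukaemia gave few measured starts. For erythroid cells 5 of 10 were measured, and 3 were called higher in CD11b-positive than in PBS. These were Rhd (59.9% in CD11b-positive, 9.60% in PBS), Ermap (56.1% and 8.06%) and Epor (30.9% and 2.92%). For T and NK cells 1 of 10 was measured, Zap70, which was called higher (46.6% and 19.5%). For B cells 1 of 9 was measured and was not called. In this contrast 10.2% of all gene starts or ends were called. With the block, Rhd, Ermap and Zap70 were also called between CD11b-positive and CD11b-negative (background 4.68%). Methylation of the called starts is given as a value, and its part in the levels of the stretch was not tested.

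The gene starts whose levels over the 12 libraries were most like those of the chosen tile, by Pearson correlation over 10863 starts, were Enpep (r = 0.988), Pom121 (0.986), Olfr225 (0.985), Rhd (0.984) and Slc25a21 (0.982). The libraries share depth and group, so the correlation is a description of these 12 libraries. Rhd, for one, had 50.3% to 79.2% in CD11b-positive libraries, 17.0% to 62.8% in CD11b-negative libraries, with the highest value in library 2, and 4.69% to 13.4% in PBS libraries. Pom121 and Slc25a21 followed the same order at low levels, at most 8.35% and 3.42%.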

How the data were processed

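The deposited files give, per the labels and the file columns, unnormalised counts of methylated and unmethylated calls for each CpG cytosine and strand, one library per file. Build mm10 and the programs Bismark, methylKit 1.20.0, cutadapt 2.7 and Trim Galore 0.6.4 are named in the submitters' processing notes. The sources used here give no Bismark version or settings, duplicate removal or conversion rate. Files list cytosines with at least 1 call, so an unlisted CpG had none there. Counting intervals do not cover copies of one molecule.

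Calls of both strands were summed, and CpGs with at least 10 calls in all 12 libraries kept. Tiles were 1000 bp with at least 3 such CpGs, gene spans the gene with 2000 bp on each side, and gene starts 1000 bp on each side of the RefSeq start, or of both gene ends where no strand was given. Each feature was tested on its counts by a quasi-binomial logistic model with an F test over the 8 libraries compared (Python 3.11.15, numpy 2.4.6, scipy 1.17.1). Pearson dispersion was kept at 1 or more and moderated as squeezeVar of limma does, separately for features of under 5%, 20%, 80%, 95% and higher mean methylation. The Benjamini-Hochberg adjustment ran over all features of the genome at each level, and adjusted p-values in the text come from this model unless edgeR (4.0.16) is named. Stretch means were compared by two-sided exact permutation over 70 assignments (smallest p = 0.0286). The test was tried on simulated counts with known differences, drawn with the same spread in both groups. No simulated library was set to lie with the other group, as CD11b-negative 2 did. The trial therefore does not cover that case, and its outcome is not given here.

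The members, lists, tests and naming rule were chosen with earlier results of these data known. Named were the 6 genes, the other measured genes of the stretch, the chosen tile, per comparison the 3 tiles highest and 3 lowest, called list members and the 5 most alike gene starts. The 2 tiles between Dppa3 and Nanog, the one at 122595001 and those of Slc2a3 and Dppa3 were named after their values were seen. A gene of the stretch is not reported here.

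Replicate numbers come from the titles. Deviations of tiles from their group means correlated between same-numbered CD11b-positive and CD11b-negative libraries at 0.159, 0.926, 0.654 and 0.682. The best correlation with a library of another number was 0.211, -0.487, 0.664 and 0.690. Only number 2 thus correlated best with its own number. The numbers were taken to pair the samples, but this pairing was not established for 1, 3 and 4, and blocked values depend on it. The labels do not state what a number marks. Blocked values therefore stand beside that comparison where they change a call. Alternatives covered coverage, strand, window size, all 12 libraries in one fit, the Y share, moderation, edgeR and leaving out each library.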

Additional observations from a re-analysis of the deposited data

Results flagged for a closer look

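Of 39 groups of 4 libraries looked at for single libraries standing apart, 6 had one whose gap to the nearest other library was large relative to the range of the group (Dixon's test). Chance flags about 1 in 20 groups, and the 6 overlap in CpGs and libraries. All 6 were libraries numbered 2. Over all CpGs of the stretch, CD11b-positive 2 had 33.2%, against 27.7% to 28.6% in the other libraries of that group, and CD11b-negative 2 had 32.4%, against 21.9% to 23.4%. Over the sparse CpGs CD11b-negative 2 had 64.3%, against 43.2% to 46.2%. At the lower end of Dppa3 CD11b-negative 2 had 69.6%, against 40.3% to 43.5%. Over Gdf3 with its flanks CD11b-positive 2 had 77.5%, against 58.3% to 60.8%, and at the upper end of Gdf3 it had 75.1%, against 53.5% to 56.4%. The libraries numbered 2 also had the highest Y share of their group. It was 41.3 calls per 1000000 autosomal calls in CD11b-positive, 40.2 in CD11b-negative and 18.6 in PBS. Group differences at Gdf3 and Dppa3 with the Y share as a term are given above. The part of the Y share in these single-library levels was not tested.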

How the results depend on the processing

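Of the alternative values of the main results 207 kept direction and side of the threshold or, where no test was made, moved by less than the SD between libraries, 18 moved further and 3 came to pass the threshold. Of those of single genes 462, 12 and 4 did, while 17 turned sign. Among the 462 were 4 values near 0 of CD11b-positive minus PBS that had the other sign, at the Phc1 start (-0.0792 points on the forward strand, -0.0437 to 0.0851 leaving out 1 library) and over Phc1 (-0.172 to 0.842 leaving out 1 library). For CD11b-positive minus PBS, which has no test, the difference at the chosen tile was 49.1 points on the forward strand, 41.7 with the Y share and 39.95 in tiles of 2000 bp, and the stretch mean difference was 5.72 points on the reverse strand and 10.9 weighted by depth. As a description of this contrast, 44 CpGs and 8 tiles passed the call rule on the reverse strand (12.7% of all CpGs and 32.3% of all tiles). In a fit of all 12 libraries 41 CpGs passed (7.31% of all). With the Y share 3 CpGs and 0 tiles passed (0.103% and 0.128% of all), and without moderation 0 CpGs did. With the Y share CD11b-negative minus PBS gave 4 CpGs (0.149% of all), 1 tile (0.111% of all) and 16.3 points at the chosen tile. For CD11b-positive minus CD11b-negative the replicate block gave 31 CpGs (6.83% of all), 6 tiles (13.5% of all) and 32.7 points at the chosen tile. For CD11b-negative minus PBS the block gave 1 CpG (0.025% of all). Same-numbered libraries correlated at 0.439, 0.772, 0.342 and -0.131 between CD11b-negative and PBS and at 0.175, 0.730, 0.232 and -0.0990 between CD11b-positive and PBS. In both, numbers 1 and 2 correlated best with their own number and 3 and 4 did not. The numbers were not taken to pair either group with PBS. The block also brought the Gdf3 upper end past the threshold (CD11b-positive minus CD11b-negative), and changed no other call of the main results or of the 6 genes. An exact sign-flip test of the 4 pairs cannot go below 0.125. Leaving out 1 library at a time, CD11b-positive minus CD11b-negative had 0 to 40 CpGs, 0 to 7 tiles and 26.5 to 45.3 points at the chosen tile, the high ends without CD11b-negative 2. Without CD11b-negative 2, 7.32% of all CpGs and 20.4% of all tiles were called.

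The turned signs were these, and the cause was not tested. On the forward strand Dppa3 gave -2.74 (CD11b-negative minus PBS) and 3.97 points (CD11b-positive minus CD11b-negative), and the Phc1 start -0.00419 and -0.0750. With the Y share, CD11b-negative minus PBS was -0.433 at Apobec1, and CD11b-positive minus CD11b-negative was 0.0620 at Dppa3, -0.104 at Slc2a3 and -0.877 at the lower end of Dppa3. Flanks of 5000 bp gave 10.5 at Dppa3, and a 500 bp window -0.0401 at the Phc1 start, both for CD11b-positive minus CD11b-negative. Leaving out 1 library gave -0.0515 to 0.0652 (CD11b-negative minus PBS) and -0.0541 to 0.0748 (CD11b-positive minus CD11b-negative) at the Phc1 start, -0.734 to 6.01 at Apobec1 (CD11b-negative minus PBS) and -1.26 to 0.00925 at Dppa3 (CD11b-positive minus CD11b-negative). The chosen tile rests on 3 CpGs with at least 111 calls per library, and Nanog was not compared because none of its CpGs reached the coverage minimum.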
